A study of Mus musculus with 9 samples.

Results

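The transcripts of the cytosolic ribosomal proteins were examined in mouse livers with and without hepatocellular carcinoma (HCC). The members were all genes of the deposited count table whose symbol names a cytosolic ribosomal protein (Rpl, Rps or Rplp with a number, with or without a final a or x), together with Rpsa and the paralogs Rps27l, Rpl22l1, Rpl7l1 and Rpl3l. Rows of processed pseudogenes were not members. The pseudogene rows below are those named as a member with -ps added, and copies carried under other names were not counted among them. The rule found 80 of 55401 genes, of which 49 belong to the large subunit, stalk proteins included, and 31 to the small subunit. All 80 passed the filter on low counts that left 15717 genes for testing.

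A ribosome holds a single copy of nearly every ribosomal protein, and these messenger RNAs are among the most abundant of the hepatocyte. Many of them begin with a cytosine followed by an unbroken stretch of pyrimidines, the terminal oligopyrimidine (TOP) tract, which ties their translation to mTOR, a kinase that acts downstream of AKT. Ribosome production is often raised in proliferating tumor cells, whereas the translation of TOP messages can change without a change in their amount. Sequencing of total liver RNA measures that amount only.

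RNA sequencing was performed on whole livers of 9 female mice, 3 in each of 3 groups. HCC was produced in mice aged 6 weeks by hydrodynamic tail vein injection of sleeping beauty plasmids for myristoylated AKT, driven by the EF1α promoter, and Nras-v12, driven by the Caggs promoter. One label also lists a plasmid for N90-β-catenin, while the study names the model RAS/AKT. Mice with untreated HCC received a blank AAV8 vector 1 week later and mice with miR-22-treated HCC received AAV8 carrying miR-22, and both were harvested 5 weeks after the oncogenes. Healthy livers came from wild type mice labelled as given no treatment, for which the protocol gives the same age of 6 weeks but no age at harvest, so that oncogenes and vector cannot be told apart in comparisons with them. Nothing beyond the labels says how the livers of a group were handled, and p-values measure only the spread between them. The strain is FVB/N in the growth protocol and in the study's methods, which name it for the healthy livers too, but C57BL/6 among the sample traits, and nothing states that tumor nodules were separated from the surrounding liver. In bulk tissue, fewer cells of a type and less RNA per cell cannot be told apart.

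The libraries held 16664659 to 23908392 counts, and averaged over genes, livers of the same group differed by far more than counting error. Between libraries, counts were scaled by TMM, which sets the typical gene to no change. The healthy livers had scaling factors of 0.865 to 0.872, the untreated HCC livers of 1.12 to 1.22 and the treated ones of 0.942 to 1.03. The 10 hepatocyte markers had summed normalized counts from 2623000 to 2731000 (healthy), from 1020000 to 1295000 (untreated HCC) and from 1558000 to 1959000 (miR-22-treated HCC), so hepatocyte transcripts were present in all groups. For the ribosomal proteins, replicate 4 of miR-22-treated HCC had the highest value of its group for 78 of the 80 genes, whereas replicate 2 had the lowest for 77. The other groups were also uneven. Healthy replicate 2 had the lowest value for 67 genes, and untreated HCC replicate 2 had the highest for 63 and replicate 4 the lowest for 65. All genes of a library share its scaling factor, and the same ranks were not counted over all tested genes.

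The summed share of the 80 genes depended on what it was divided by. As a percent of all counts, it was 1.03, 0.926 and 1.02 in the healthy livers, 1.40, 1.42 and 1.24 in untreated HCC, and 1.04, 1.12 and 1.40 in miR-22-treated HCC. By this measure every untreated HCC liver was above every healthy liver, and the treated livers spanned the range between them. As a percent of the TMM-scaled library, it was 1.18, 1.07 and 1.17 in healthy livers, 1.22, 1.16 and 1.10 in untreated HCC, and 1.05, 1.19 and 1.36 in miR-22-treated HCC. Once scaled, the groups overlapped, with means of 1.14% ± 0.0616, 1.16% ± 0.0569 and 1.20% ± 0.157 (SD, n = 3). The treated group had the widest spread, with replicate 2 lowest and replicate 4 highest. Counts of the 20 most abundant other genes made up 22.2% to 23.5% of each healthy library and 19.6% to 21.3% of each untreated HCC library, and those of mitochondrially encoded genes 3.86% to 4.26% and 2.53% to 2.83%. Without those 20 genes the share was still higher in every untreated HCC liver (1.57% to 1.77%) than in every healthy liver (1.19% to 1.35%), and the part of the mitochondrially encoded genes was not tested.

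**Figure D1:**
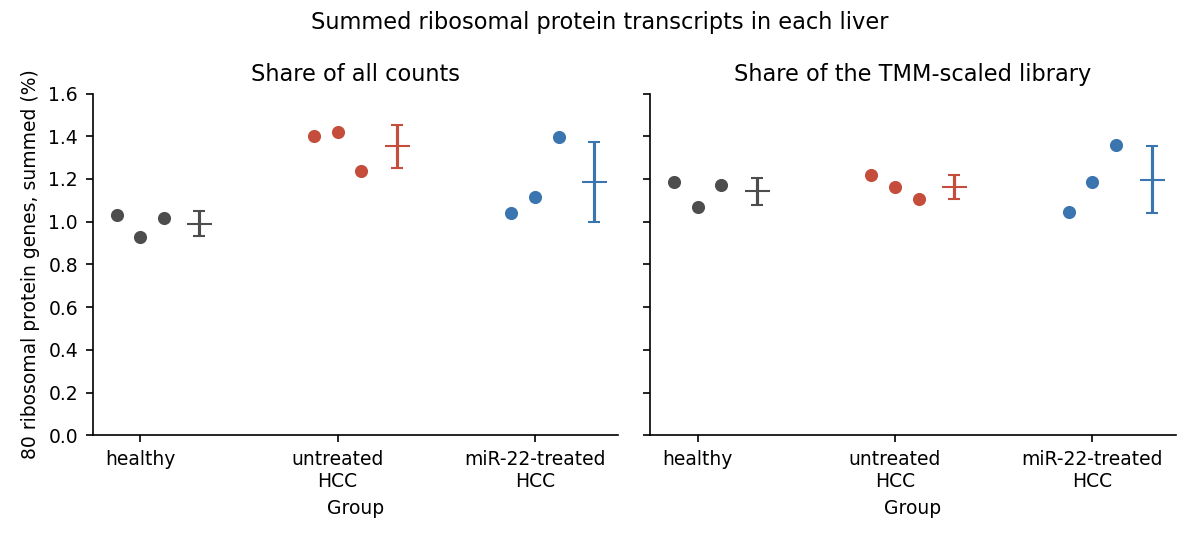
Summed counts of the 80 ribosomal protein genes in each liver, in percent of all counts (left) and of the TMM-scaled library (right); points are livers, and the horizontal mark with bars is the mean ± SD of 3 livers. Untreated HCC lies at 1.24% to 1.42% on the left, above healthy livers at 0.926% to 1.03%, while the groups overlap on the right.

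Compared with healthy livers, few ribosomal protein transcripts passed the test in untreated HCC, and most of their changes were small. Relative to the typical gene, the median log2 fold change was 0.02 for the 80 genes and 0.01 for all tested genes. The interquartile range ran from -0.10 to 0.16 for the members and from -0.47 to 0.61 for all tested genes. At a Benjamini-Hochberg adjusted p under 0.05 in edgeR's quasi-likelihood test and any fold, 6 members were higher and 6 lower, beside 29.4% of all tested genes higher and 26.8% lower. With a fold over 1.5 in addition, 0 members were higher and 1, Rps27, was lower, beside 22.7% and 18.1% of all tested genes. At an unadjusted p under 0.05 and the same fold, 0 were higher and 2 lower, and DESeq2 and limma also gave 0 higher. For 63 of the 80 members (78.8%), the 95% confidence interval of the fold change lay wholly within 1.5-fold in either direction, as it did for 27.8% of all tested genes. The median standard error was 0.12 for members and 0.16 for all tested genes, so the members were also measured more precisely. Large and small subunit genes had medians of 0.02 and 0.01, with 3 higher and 3 lower in each. Without healthy replicate 1, 2 or 3, the members called at any fold numbered 5, 3 and 3 higher and 2, 6 and 2 lower, and without untreated HCC replicate 2, 3 or 4 they numbered 3, 3 and 8 higher and 5, 4 and 1 lower.

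These directions are relative to the typical gene. When libraries were scaled by their total counts alone, the median of all tested genes moved to 0.43 and that of the members to 0.45. By that scaling 60 members were higher and 0 lower in untreated HCC, beside 51.9% and 13.4% of all tested genes. The members exceeded the median gene by 0.01 under TMM, DESeq2 size factors, upper-quartile factors and total counts alike.

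**Figure D2:**
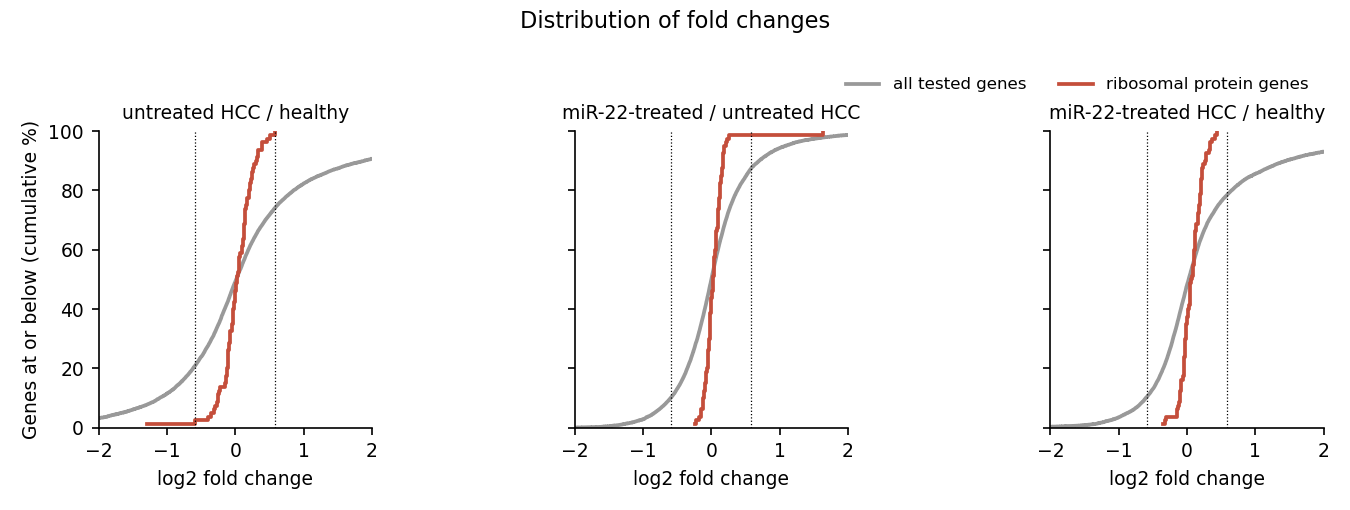
Cumulative share of genes (vertical axis, percent) at or below each TMM-scaled log2 fold change (horizontal axis, shown from -2 to 2) for the 80 ribosomal protein genes and all 15717 tested genes in the 3 comparisons; dotted lines mark 1.5-fold. The ribosomal protein curve is steeper in each panel, with quartiles of -0.10 and 0.16 against -0.47 and 0.61 for untreated HCC against healthy livers.

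The members called higher in untreated HCC included 3 of the large subunit. Rpl13a (chromosome 7, 44774982 to 44778263, minus strand, GRCm39), a large subunit protein that is also known to leave the ribosome in the interferon response, had 1231, 1056 and 1251 normalized counts in healthy livers and 1841, 1745 and 1710 in untreated HCC. All untreated HCC livers were above all healthy livers, and the log2 fold change was 0.58 ± 0.12 (SE; adjusted p = 0.00155), just inside the 1.5-fold threshold. Rpl12 (chromosome 2, 32851496 to 32855357, plus strand), which sits at the base of the stalk where elongation factors bind, had 2598, 2612 and 2527 in healthy livers and 3499, 3384 and 3279 in untreated HCC. The groups did not overlap and the healthy livers were close together, with a log2 fold change of 0.39 ± 0.10 (adjusted p = 0.00396). Rpl22l1, the paralog of the RNA-binding protein Rpl22, had 317, 226 and 300 in healthy livers and 391, 380 and 333 in untreated HCC. It was higher in every untreated HCC liver (0.39 ± 0.14, adjusted p = 0.0369).

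Small subunit genes rose as well. Rps12 (chromosome 10, 23661081 to 23663173, minus strand), a protein known from cell competition in the fly, had 2516, 1961 and 2147 normalized counts in healthy livers and 3389, 3241 and 2759 in untreated HCC. It rose by 0.50 ± 0.14 on the log2 scale (adjusted p = 0.00684), with no overlap between groups. Rps7, which can bind the p53 inhibitor Mdm2, rose by 0.26 (adjusted p = 0.0425). Rpl13a, Rpl12 and Rps12 stayed called when each of the 6 livers was left out in turn, whereas Rpl22l1 was lost without healthy replicate 2 or 3 or untreated HCC replicate 2 or 3, and Rps7 was called only where the liver left out was untreated HCC replicate 4. The libraries do not mark the strand, so that reads of overlapping antisense genes cannot be separated. Of the reads of Rps7 and its pseudogene rows together, 11.6% lay on pseudogenes, and with these added the call of Rps7 was lost (adjusted p = 0.0513).

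Of the 6 members called lower, Rps27 and Rps2 fell furthest. Rpl3l, near the floor of counts, changed by -1.29 and Rpl36 by -0.40, but neither was called in the same test (adjusted p = 0.0546 and 0.077). Rps27, a zinc-binding protein of the small subunit (chromosome 3, 90119819 to 90120977, minus strand), had 1794, 1308 and 1750 normalized counts in healthy livers and 1216, 1115 and 896 in untreated HCC. It was lower in every untreated HCC liver by -0.59 ± 0.18 (adjusted p = 0.015), but the livers of each group spread widely and the call was lost without healthy replicate 1 (adjusted p = 0.0522), healthy replicate 3 (0.0503) or untreated HCC replicate 4 (0.0608). Rps2 (chromosome 17, 24937080 to 24940904, plus strand), a protein near the channel through which messenger RNA enters, had 2881, 2695 and 2907 in healthy livers and 2342, 2163 and 2133 in untreated HCC. Its fold change of -0.35 ± 0.09 (adjusted p = 0.005) stayed called with each of the 6 livers left out. Pseudogene rows held 64.7% of the reads of Rps2 and those rows together, so that its level is uncertain. The sum of Rps2 and its pseudogene rows fell by 0.30 (adjusted p = 0.0157).

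The smaller falls among the called members were in Rpl35a, Rpl10, Rpl22 and Rps25. Rpl10, which joins the large subunit late in its maturation, had 8890, 8390 and 8976 normalized counts in healthy livers and 7406, 6859 and 7144 in untreated HCC. The groups did not overlap, and the fold change was -0.29 ± 0.11 (adjusted p = 0.0306). Rpl22 had 1861, 1684 and 1700 in healthy livers and 1478, 1527 and 1382 in untreated HCC, a change of -0.26 ± 0.08 (adjusted p = 0.0194). Rpl35a, a gene mutated in Diamond-Blackfan anemia, changed by -0.31 (adjusted p = 0.0283) and Rps25, which is needed by several viral internal ribosome entry sites, by -0.25 (adjusted p = 0.0383). Rpl22 lost its call without healthy replicate 1 or untreated HCC replicate 4, Rpl35a without healthy replicate 3 or untreated HCC replicate 4, while Rpl10 kept it only without healthy replicate 2 and Rps25 lost it with each of the 6 left out. Scaled by total counts, Rps27 stayed negative at -0.16, while Rps2 (0.069), Rpl35a (0.12), Rpl10 (0.13), Rpl22 (0.17) and Rps25 (0.17) turned positive, all below the median gene at 0.43.

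**Figure D3:**
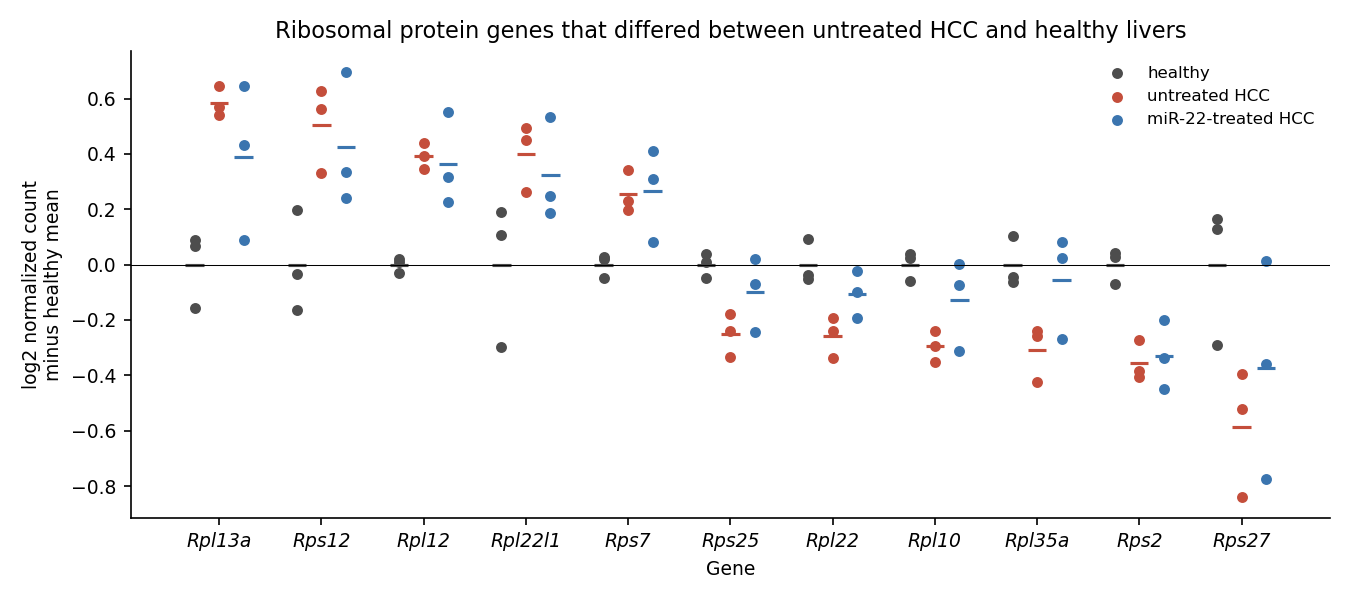
Normalized counts on the log2 scale, minus the mean of the healthy livers, for 11 of the 12 ribosomal protein genes called between untreated HCC and healthy livers; points are livers, short lines are means of 3 livers. The genes were chosen by that comparison, whose TMM-scaled changes run from 0.58 (Rpl13a) to -0.59 (Rps27); by total counts, 5 of the 6 falls turn positive.

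The annotated start sites were searched for pyrimidine runs because TOP tracts are known from most ribosomal protein messages. Start windows in the RefSeq table (GRCm38.p6) were matched for 60 of the 80 members, with 72 start sites. A run of at least 6 C or T bases on the sense strand that began within 10 bases of the start was present at 48.6% of the members' start sites and at 25.3% of all 32851. A run that reached into this window from further upstream was counted from the window's first base. The motif CTTTCC, on either strand and within 250 bases before to 50 after the start, was present at 48.6% and 26.6%, and TATAAA at 9.72% and 13.6%. The motif CTTTCC can overlap the run. The windows of the 3 members that rose and stayed called with each liver left out, and of the 2 called members that fell furthest, are shown. They hold the 10 bases before the start and the 20 from it on, with the longest such run in capitals.

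Rpl13a: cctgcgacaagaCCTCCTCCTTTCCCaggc
Rpl12: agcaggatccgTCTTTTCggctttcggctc
Rps12: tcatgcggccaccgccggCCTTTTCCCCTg
Rps27: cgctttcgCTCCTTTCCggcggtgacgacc
Rps2: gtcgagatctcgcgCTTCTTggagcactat

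These windows lie at chr7:45128726-45128755, minus strand (Rpl13a), chr2:32961702-32961731, plus strand (Rpl12), chr10:23787190-23787219, minus strand (Rps12), chr3:90213629-90213658, minus strand (Rps27) and chr17:24720053-24720082, plus strand (Rps2) of GRCm38.p6. The run had 14 bases in Rpl13a, 7 in Rpl12, 11 in Rps12, 9 in Rps27 and 6 in Rps2, so runs of this kind were present among members that rose and members that fell. Called genes without a run of 6 bases were found among those that rose, as in Rps7 (5 bases), and among those that fell, as in Rpl10 (3) and Rps25 (4). Rpl22 had 5 and 3 at its annotated starts, each counted from the window's first base, so that its runs may be longer.

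The next members, named as stalk proteins or for a textbook role, did not pass the test in this comparison. Rpl5 and Rpl11, which together hold back Mdm2 when ribosome assembly fails, changed by 0.11 (95% confidence interval -0.08 to 0.31) and -0.08 (-0.33 to 0.16). Rps6, whose phosphorylation reports mTOR activity, changed by 0.14 (-0.13 to 0.40), and its level was 4320, 3699 and 4250 in healthy livers, 4892, 4557 and 4040 in untreated HCC and 3793, 4328 and 5049 in miR-22-treated HCC. All 3 groups of Rps6 overlapped. The stalk proteins Rplp0 and Rplp1, which recruit elongation factors, changed by 0.22 (adjusted p = 0.0956) and 0.24 (adjusted p = 0.172), with untreated HCC livers above healthy livers for both, and Rplp2 by 0.13 (adjusted p = 0.392). Rps14 and Rps19, the genes linked to the anemias of the 5q deletion and of Diamond and Blackfan, changed by -0.01 and 0.34 (adjusted p = 0.96 and 0.0827). Rpsa, also known as a laminin receptor, changed by -0.10 (-0.32 to 0.11), Rps27a, made as a fusion to ubiquitin, by 0.01 (-0.25 to 0.28), Rpl10a by 0.13 (-0.13 to 0.38) and Rps4x, the X-linked form of Rps4, by -0.01 (-0.23 to 0.21). Rpl38, known for its part in the translation of Hox messages, changed by 0.17 with a wide interval of -0.36 to 0.70.

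Members differed far more from each other than between groups. Per kilobase of coding sequence, the median level of the 79 members other than Rpl3l was 5214 normalized counts in healthy livers, 5363 in untreated HCC and 5506 in miR-22-treated HCC. The shortest gene, Rpl41, was highest with 38005, 44030 and 43642, ahead of Rpl10 with 13633, 11116 and 12529. Rpl29 with 735, 1012 and 923 and Rpl22l1 with 768, 1005 and 955 were among the lowest. For genes as short as Rpl41 the untranslated ends add much of the transcript, so that levels per coding kilobase are overstated. By counts, Rpl4 was the most abundant, with 10046, 10087 and 10099.6 normalized counts in healthy livers, 9918, 9431 and 9388 in untreated HCC and 9724, 10579.6 and 10929 in miR-22-treated HCC. Its log2 fold changes were -0.07 in untreated HCC against healthy livers, 0.12 with miR-22 against untreated HCC and 0.05 with miR-22 against healthy livers.

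The balance within paralog pairs does not depend on the scaling between libraries. The counts of Rpl22l1 were 17.0%, 13.4% and 17.6% of those of Rpl22 in healthy livers, 26.4%, 24.9% and 24.1% in untreated HCC, and 20.7%, 20.2% and 23.4% in miR-22-treated HCC. Every HCC liver was above every healthy liver, and the treated livers lay between the other groups without overlap. Against healthy livers the log2 ratio was 0.66 higher in untreated HCC, and it changed by -0.23 with miR-22, each at p = 0.1 in an exact two-sided permutation test, the smallest p that 3 against 3 livers allow. The counts of Rps27l, a p53-inducible paralog, were 103%, 121% and 104% of those of Rps27 in healthy livers, 172%, 160% and 179% in untreated HCC, and 179%, 170% and 145% in miR-22-treated HCC. This ratio was higher in all HCC livers, treated or not, than in healthy livers (0.64 in untreated HCC, exact permutation p = 0.1), whereas treated and untreated HCC overlapped (-0.05, exact permutation p = 0.7). Rps27l itself changed by 0.06 (adjusted p = 0.728), while Rps27 changed by -0.59.

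**Figure D4:**
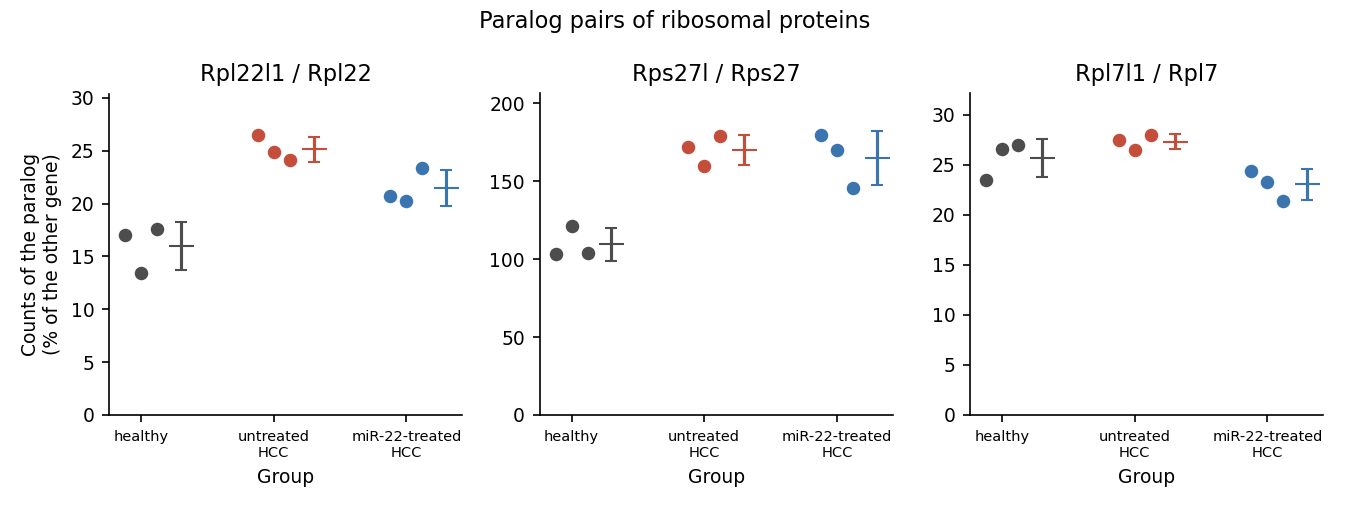
Counts of Rpl22l1, Rps27l and Rpl7l1 in percent of those of Rpl22, Rps27 and Rpl7 in each liver, with mean ± SD of 3 livers; axes start at 0. The first ratio separates all 3 groups, at 13.4% to 17.6%, 24.1% to 26.4% and 20.2% to 23.4%, and the second separates healthy livers (103% to 121%) from both HCC groups (145% to 179%).

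Rpl7l1, a paralog of Rpl7 with a part in early ribosome assembly, had 23.4%, 26.6% and 27.0% of the counts of Rpl7 in healthy livers, 27.5%, 26.4% and 27.9% in untreated HCC, and 24.4%, 23.3% and 21.4% in miR-22-treated HCC. The treated livers were below the untreated ones (-0.25, exact permutation p = 0.1), while healthy and untreated HCC overlapped (0.09, exact permutation p = 0.3). With the pair of Rpl3l and Rpl3, 12 such tests were made over the 3 comparisons, and none can pass 0.05 at this sample size. Rpl3l, the muscle paralog of Rpl3, was near the floor with 10, 10 and 10 raw counts in healthy livers, 8, 3 and 6 in untreated HCC and 20, 10 and 11 in miR-22-treated HCC.

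Relative to the summed counts of the 80 genes themselves, which asks how the composition of ribosomal protein messages shifted, 5 members gained and 4 lost in untreated HCC, beside 25.6% and 23.2% of all tested genes. The gains were Rpl13a (0.56), Rps12 (0.48), Rpl29 (0.43), Rpl12 (0.37) and Rpl22l1 (0.37), with adjusted p from 0.00118 to 0.0484. The losses were Rps27 (-0.61), Rpl36 (-0.42), Rps2 (-0.38) and Rpl35a (-0.33), with adjusted p from 0.00256 to 0.0356. Rpl29 and Rpl36 were not called under TMM (adjusted p = 0.0653 and 0.077), and their livers overlapped between the groups. These counts rest on single livers. Without healthy replicate 1, 2 or 3 there were 3, 3 and 2 gains and 3, 2 and 1 losses, and without untreated HCC replicate 2, 3 or 4 there were 2, 2 and 4 gains and 1, 1 and 2 losses.

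Compared with untreated HCC, a single ribosomal protein transcript passed the test after treatment with miR-22. The median log2 fold change of the members was 0.03, and at any fold 1 member was higher and 0 lower, beside 13.6% and 10.4% of all tested genes. With a fold over 1.5 as well, the counts were the same 1 and 0, beside 8.32% and 5.47%. At an unadjusted p under 0.05, edgeR gave 2 higher and 0 lower, and both DESeq2 and limma gave 0 lower. For 74 of the 80 members (92.5%) the 95% confidence interval lay within 1.5-fold, as it did for 41.2% of all tested genes. The called member was Rpl3l (1.63 ± 0.51, adjusted p = 0.0362), which rests on the few counts given above and was not called by limma or without untreated HCC replicate 3 or 4 or miR-22-treated replicate 2 or 3. Relative to the members' total, 0 were higher and 0 lower, beside 8.19% and 7.83%, with 1 in each direction at an unadjusted p under 0.05. Scaled by total counts, 1 was higher and 5 lower with miR-22, beside 8.07% and 27.5%, and the members' median moved to -0.21 and that of all tested genes to -0.23.

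None of the 12 genes called in HCC was called between treated and untreated HCC. Rpl13a had 1249, 1586 and 1837 normalized counts in the treated livers, which overlapped both other groups, with a change of -0.18 (95% confidence interval -0.45 to 0.09) from untreated HCC. Rpl12 had 3017, 3212 and 3782 (-0.02, -0.23 to 0.19) and Rps12 had 2597, 2771 and 3558 (-0.07, -0.37 to 0.22). Rps2 had 2071, 2236 and 2460 (0.03, -0.17 to 0.23) and stayed below all healthy livers, whereas Rps27 had 935, 1248 and 1614 (0.24, -0.16 to 0.64) and spanned both groups. Rpl35a had the smallest p after Rpl3l, with 573, 702 and 730 and a change of 0.26 (0.02 to 0.49, adjusted p = 0.104). For each of these genes replicate 4 held the highest value and replicate 2 the lowest. Without replicate 4, Rplp2 and Rps10 were called lower with miR-22, and without replicate 2, Rpl35a was called higher.

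Against healthy livers, which share the comparison groups above, miR-22-treated HCC had 4 members higher and 1 lower at any fold, beside 21.4% and 15.1% of all tested genes. Past 1.5-fold there were 0 and 0, beside 16.9% and 7.05%, with 0 at an unadjusted p and 0 by DESeq2 and limma. The higher members were Rps12 (0.43, adjusted p = 0.0259), Rpl13a (0.40, 0.0246), Rpl12 (0.37, 0.00993) and Rps7 (0.27, 0.0482), and the lower was Rps2 (-0.33, 0.0141). Rps7 was not called by DESeq2, nor with its pseudogene reads added (adjusted p = 0.0601). Relative to the members' total, none of these 4 genes was called higher (adjusted p = 0.0576 for Rps12, 0.0555 for Rpl13a, 0.0987 for Rpl12 and 0.273 for Rps7). In that fit 0 members were higher, with 3 at an unadjusted p under 0.05, and 2, Rps2 (-0.39) and Rps27 (-0.43), were lower, beside 16.8% and 10.9% of all tested genes. Scaled by total counts, 22 were higher and 0 lower, Rps2 no longer being called, beside 31.1% and 7.55%. Under TMM, Rps2 stayed called with each liver left out. Without treated replicate 4, Rpl12 alone was called higher and Rps2, Rps27 and Rpl36 lower, and without treated replicate 2, 9 members were called higher. Without healthy replicate 1, 2 or 3, the members called higher numbered 2, 1 and 1, and without treated replicate 3 they numbered 2.

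How far the livers of a group differed depended on the length of the gene. A split at 360 coding bases, chosen after the data were seen, gave 19 short and 60 long members, leaving out Rpl3l. The median SD of the log2 normalized counts over 3 livers was 0.23 for short and 0.10 for long members in healthy livers, 0.22 and 0.07 in untreated HCC, and 0.39 and 0.18 in miR-22-treated HCC. Rps29, of 168 coding bases, had 405, 504 and 831 normalized counts in the treated livers, an SD of 0.53 on the log2 scale. Rpl4, the longest at 1257 bases, had an SD of 0.09 there. The livers that were low or high were so for both classes, with the short members further out. Relative to the healthy mean, replicate 4 of the treated group lay at 0.36 for short and 0.28 for long members, replicate 2 at -0.27 and -0.13, healthy replicate 2 at -0.26 and -0.11, and untreated HCC replicate 4 at -0.23 and -0.03. The 332 other tested genes with short coding sequences and a mean of at least 100 counts lay at 0.10, -0.15, -0.08 and -0.10 in the same 4 libraries. In untreated HCC replicates 2 and 3, the short members lay at 0.13 and 0.07 but those other genes at -0.07 and -0.16. In treated replicate 3 the values were -0.04 and 0.01, and in healthy replicates 1 and 3 they were 0.14 and 0.09 against 0.04 and 0.04. The other short genes thus did not follow the short members in every library. The part of library preparation in this spread was not tested. Between groups, the median log2 fold changes of short and long members were 0.02 and 0.02 in untreated HCC against healthy livers, 0.06 and 0.02 with miR-22 against untreated HCC, and 0.02 and 0.09 with miR-22 against healthy livers, with median standard errors near 0.18 and 0.11 in each.

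**Figure D5:**
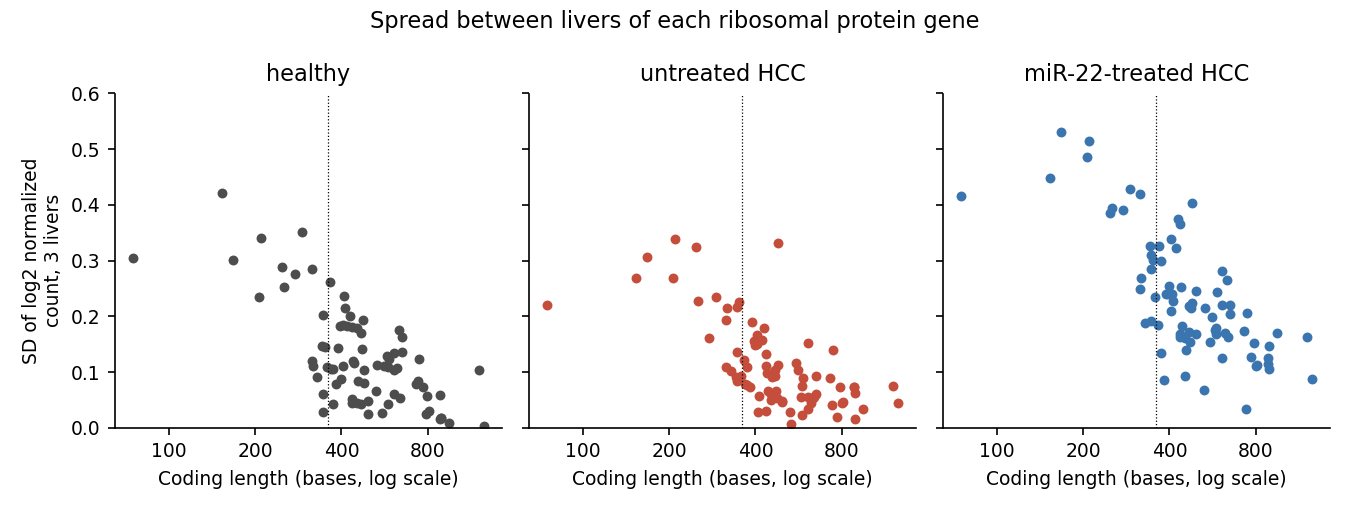
SD of the log2 normalized counts over the 3 livers of a group (vertical axis) against coding length in bases (horizontal log axis) for 79 ribosomal protein genes; the dotted line marks 360 bases. Short genes lie higher in all 3 panels, with a median SD of 0.39 for short and 0.18 for long members in miR-22-treated HCC.

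The ribosomal proteins were set beside genes that build or regulate the ribosome. At the same threshold, the background over all tested genes was 29.4% higher and 26.8% lower for untreated HCC against healthy livers, and 13.6% higher and 10.4% lower for miR-22-treated against untreated HCC. Of 30 core ribosome biogenesis genes, against healthy livers 11 were higher and 1 lower in untreated HCC (median 0.20), and 0 were higher and 15 lower with miR-22 than in untreated HCC (median -0.33). Nop58, which holds together the particles that methylate ribosomal RNA, had 488 ± 43.5, 1011 ± 78.9 and 671 ± 54.9 normalized counts in healthy livers, untreated HCC and miR-22-treated HCC (SD, n = 3). It rose by 1.05 in HCC (adjusted p = 2.85e-06) and fell by 0.59 with miR-22 (adjusted p = 0.00161). Its partner Nop56 rose by 0.80 and fell by 0.39 (adjusted p = 1.87e-05 and 0.0122). Rrp12, a factor in the maturation of both subunits, changed by -0.16 in HCC (adjusted p = 0.326) and fell by 0.84 with miR-22 (adjusted p = 0.00114). Polr1a, the largest subunit of RNA polymerase I, changed by 0.15 in HCC (adjusted p = 0.211) and fell by 0.49 with miR-22 (adjusted p = 0.00351). Proliferation markers moved alongside, with 10 of 10 higher in HCC and 5 lower with miR-22, and their part in these changes was not tested.

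Mitochondrial ribosomal proteins, which serve the separate ribosome of that organelle, had more genes lower than higher in HCC. Of 78, 2 were higher and 34 lower than in healthy livers (median -0.21), so that most did not pass the test in either direction, and 7 were higher and 1 lower with miR-22 than in untreated HCC (median 0.08). Mrpl15 had 1471 ± 46.7, 740 ± 88.8 and 916 ± 25.4 normalized counts in the 3 groups, a change of -0.99 in HCC (adjusted p = 2.20e-06) and 0.31 with miR-22 (adjusted p = 0.0327). Mrps6 went the other way, with 113 ± 14.9, 285 ± 17.5 and 205 ± 24.9 (1.34, adjusted p = 7.14e-06). The hepatocyte markers fell in 10 of 10 genes in HCC and rose in 8 with miR-22, and their part in these changes was not tested.

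Ribosomal proteins outside the naming rule and other messages with a TOP tract were mixed. Of 6 tested genes outside the rule, 2 were higher and 2 lower in HCC, near the background. Rps4l, a copy of Rps4x with which it may share reads, had 55.3 ± 11.1, 141 ± 42.5 and 103 ± 11.4 normalized counts in the 3 groups (1.35 in HCC, adjusted p = 0.000457). Fau, which encodes Rps30 as a fusion to a ubiquitin-like sequence, changed by -0.47 (adjusted p = 0.000895), and Rack1, a scaffold on the small subunit, by 0.29 (adjusted p = 0.0185). Of 21 translation factors and other TOP messages, 3 were higher and 4 lower in HCC, and 1 was higher and 0 lower with miR-22. Nap1l1, a histone chaperone with a TOP tract, rose by 0.71 and the helicase Eif4a2 fell by 0.59 (adjusted p = 4.64e-05 and 9.94e-05). Of 19 genes of mTOR and TOP control, 4 were higher and 7 lower in HCC, and 3 were higher and 2 lower with miR-22. The count of higher genes in HCC was below the background share and that of lower genes above it. Mycn, a transcription factor that drives ribosome production, had 17.0 ± 4.12, 345 ± 78.6 and 192 ± 32.1 normalized counts in the 3 groups (4.33 in HCC, adjusted p = 5.20e-08, and -0.84 with miR-22, adjusted p = 0.00702). Ddit4, an inhibitor of mTOR, rose from 87.3 ± 10.4 to 1039 ± 310 normalized counts in HCC and was 611 ± 30.9 with miR-22. Deptor, another inhibitor, fell by 0.92 in HCC and rose by 0.54 with miR-22 (adjusted p = 9.88e-06 and 0.00328), and Tsc1, a brake on mTOR, fell by 0.73 and rose by 0.60 (adjusted p = 1.00e-05 and 0.000603).

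Markers of some other cells also differed between the same groups. Summed normalized counts of the 7 cholangiocyte markers ranged over 572 to 816 (healthy), 64800 to 121500 (untreated HCC) and 30410 to 52660 (miR-22-treated HCC), with 5 of 6 tested higher in HCC. The median log2 fold change of those tested was 4.23, while Spp1 rose by 7.43, so the sum need not stand for the list. Which cells held these transcripts was not tested. Those of the 10 neutrophil markers were 34.2 to 89.0, 351 to 449 and 346 to 518, with 4 of 4 tested higher, and those of the 9 stellate and fibroblast markers 8286 to 9805, 19080 to 22400 and 15610 to 18050, with 5 higher and 2 lower. Of 11 Kupffer and macrophage markers, 4 were higher and 3 lower in HCC, of 9 endothelial markers 1 and 4, of 8 T and NK cell markers tested 1 and 1, of 7 B and plasma cell markers tested 1 and 1, and of 4 erythroid markers tested 4 and 0. These last counts stand beside the same background of 29.4% higher and 26.8% lower, and the shares of the Kupffer and macrophage list are near it. Within the treated group, replicate 4 had the lowest hepatocyte sum (1558000) and the highest cholangiocyte (52660) and proliferation (4659) sums, and replicate 3, not replicate 2, had the opposite extremes. The part of these markers in the high ribosomal protein values of replicate 4 was not tested.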

How the data were processed

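Per the labels and the study's methods, total RNA was made into non-directional libraries, reads were checked with FastQC 0.11.7 and quantified with Salmon (version not given in the sources used here) against GRCm39, and gene values were summed with tximport. The authors deposited whole-number counts per gene, not normalized, for 9 livers, which were used here. The normalized table of the authors was not used. The members and all gene lists were chosen with earlier results of these data known.

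Counts were scaled by TMM and fitted in edgeR 4.0.16 (R 4.3.3) with filterByExpr, the 3 groups in 1 quasi-likelihood fit, and Benjamini-Hochberg adjustment over 15717 genes. A second fit took the members' summed counts as library size. DESeq2 1.42.0, limma 3.58.1 (log2 of CPM plus a pseudocount of 1), other scalings and filters, and leaving out each liver were alternatives. Replicate numbers were not used as pairs. Positions and coding lengths are from GENCODE M39, start windows from RefSeq (GRCm38.p6). Genes were named by fixed rules (paralogs, stalk, textbook roles, smallest p, largest relative change, highest level) and, from each list, among its 3 genes of smallest p in a comparison. Rpl41, and the members named only as called with a liver left out, were chosen after their values were seen. Averaged over genes, counting error was small at these depths beside the spread between livers. This need not hold for single members. Rpl3l had only 3 to 20 raw counts per liver, so its counting error is not small. Members whose livers lay close together, such as Rpl4 in healthy livers (SD of 0.004 on the log2 scale), need not exceed counting error either. Some results are not reported here.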

Additional observations from a re-analysis of the deposited data

How the results depend on the processing

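The counts of members called depended on scaling and on single livers, with only 3 livers per group. For untreated HCC against healthy livers, the 0 members higher past 1.5-fold became 1 with upper-quartile factors, without a filter, with at least 10 counts in every library or with only the 2 groups fitted, 20 with total counts, and 0 to 3 with each liver left out. The 6 higher at any fold became 11 with upper-quartile factors and with the filter of 10 counts, 60 with total counts, 12 with only the 2 groups, and 3 to 8 with each liver left out. The 1 lower past 1.5-fold became 0 with upper-quartile factors, total counts, no filter, the filter of 10 counts, limma, only the 2 groups or a test against the fold of 1.5, and 0 to 2 with each liver left out. The 6 lower at any fold became 2, 0 and 3 with upper-quartile factors, total counts and the filter of 10 counts, and 1 to 6 with each liver left out. For miR-22-treated against untreated HCC, the 1 higher, at any fold or past 1.5-fold, became 0 without a filter, with limma or with only the 2 groups. Past 1.5-fold the count also became 0 in the test against that fold, and it was 0 to 1 with each liver left out. The filter of 10 counts gave 0 as well, but it removed Rpl3l, the called member, before testing, so it could not check that call. The 0 lower at any fold became 5 with total counts and 0 to 2 with each liver left out. For miR-22-treated HCC against healthy livers, total counts gave 2 higher past 1.5-fold, 22 higher at any fold and 0 lower, no filter gave 3 lower, and leaving out each liver gave 1 to 9 higher and 1 to 3 lower. Relative to the members' total in untreated HCC, the 5 higher and 4 lower became 3 and 2 without a filter, 9 higher with only the 2 groups, and 2 to 4 higher and 1 to 3 lower with each liver left out; with miR-22 the 0 higher became 0 to 1. The cause was not tested.

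Replicate numbers did not pair the samples: same-numbered treated and untreated livers had correlations of -0.116, -0.116 and -0.227, and no treated liver correlated best with the untreated liver of its number. Against healthy livers, same-numbered correlations were -0.0259 to 0.0196, and treated replicate 2 (0.0114) and, among treated livers, healthy replicate 3 (0.0196) did match best with their own number. With the replicate number as a block, members called in untreated HCC against healthy livers were 2 higher and 1 lower at any fold and 0 lower past 1.5-fold, those with miR-22 against untreated HCC 0 higher at any fold and 0 past 1.5-fold, those with miR-22 against healthy livers 0 higher and 0 lower, and those relative to the members' total 1 higher and 1 lower.

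Without the 20 most abundant other genes, the summed share was 1.28%, 1.70% and 1.52% in healthy livers, untreated HCC and miR-22-treated HCC. Scaled by total counts, log2 fold changes in untreated HCC against healthy livers turned positive for Rpl22 (0.17), Rpl11 (0.34), Rps25 (0.17), Rps14 (0.42), Rpl10 (0.13), Rpsa (0.32), Rps4x (0.41), Rps2 (0.069), Rpl35a (0.12), Rpl36 (0.023) and Rpl4 (0.35), and with miR-22 against untreated HCC they turned negative for Rps2 (-0.21) and Rpl4 (-0.12). Values near 0 changed sign more readily, in untreated HCC for Rps14 (0.041 with upper-quartile factors, 0.0037 without a filter, 0.040 with the filter of 10 counts, 0.0035 with only the 2 groups) and Rps4x (0.034 with upper-quartile factors, 0.033 with the filter of 10 counts), and with miR-22 for Rps2 (-0.011 with upper-quartile factors). With each liver left out, the range crossed 0 in untreated HCC for Rps27l (-0.049 to 0.14), Rpl38 (-0.0077 to 0.34), Rps14 (-0.036 to 0.018), Rps27a (-0.085 to 0.057) and Rps4x (-0.054 to 0.016), and with miR-22 against untreated HCC for Rpl12 (-0.12 to 0.044), Rps12 (-0.22 to 0.014) and Rps2 (-0.039 to 0.083). Over all named members, comparisons and alternatives, the fold change kept its direction and side of the threshold in 1461 cases, lost its call in 84, gained one in 48 and changed sign in 130, of which 117 were called in neither fit.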
